A study of Drosophila melanogaster with 2 samples.

Results

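Mitochondrial ribosomal protein genes were taken as the protein-coding genes of the dm6 annotation (Ensembl release 115) whose name starts with mRpL or mRpS and a digit, for the large and the small subunit. The rule gave 73 genes of 13968 protein-coding genes on the 7 chromosome arms, with 47 in the large and 26 in the small subunit. The data are chromatin immunoprecipitation followed by sequencing (ChIP-seq), which finds the DNA held by a chosen protein, from whole Drosophila melanogaster embryos of strain Dip2-GFP aged 0 to 18 hours. The embryos carried a Dip2-eGFP fusion as a transgene and the protein was pulled down through its GFP tag with an anti-GFP antibody. There is 1 group of 2 biological replicates with no second condition, and the labels name the target Dip2 in the antibody field and Dlip2 in the source field. The fusion is not the untagged protein, and whole embryos of mixed age hold many cell types, so strong binding in few cells and weak binding in many cells cannot be told apart.

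Mitochondrial ribosomes translate the few proteins that the mitochondrial genome encodes, which are subunits of the respiratory chain and of ATP synthase. Their RNAs come from the mitochondrial genome, while their proteins are encoded in the nucleus, made in the cytoplasm and imported. A growing or respiring cell therefore needs many unlinked nuclear genes for 1 particle.

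The authors gave each peak a summit, its highest point, and summits at 8 of the genes are the centre of what follows. The DNA around 6 of these summits is shown here, because the peaks sit in short stretches between 2 genes and 4 of them hold the same hexamer. That hexamer was picked after the sequences had been seen. The summit of mRpL23 lies in an exon and its sequence is not shown, nor is that of mRpL41, whose summit lies in no gene. Each run is the plus strand of dm6, read 5′ to 3′ from the RefSeq sequence, with the summit at base 61. Capitals mark TAGGCT or its reverse complement AGCCTA, or in mRpL32 TATCGATA, the site of the DNA replication-related element factor (DREF).
mRpS2, chr2L:4850508-4850628, between Mon1 and mRpS2: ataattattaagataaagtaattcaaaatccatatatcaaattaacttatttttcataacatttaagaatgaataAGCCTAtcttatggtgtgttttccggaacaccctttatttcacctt
mRpS10, chr3R:15229478-15229598, between Art3 and mRpS10: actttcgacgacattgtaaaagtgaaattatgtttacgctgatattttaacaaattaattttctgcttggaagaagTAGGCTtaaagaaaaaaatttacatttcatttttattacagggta
mRpL24, chr2L:4945422-4945542, between betaggt-I and mRpL24: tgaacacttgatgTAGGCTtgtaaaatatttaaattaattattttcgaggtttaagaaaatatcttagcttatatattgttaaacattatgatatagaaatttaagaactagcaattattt
mRpL20, chr3L:13018109-13018229, between Icmt and mRpL20: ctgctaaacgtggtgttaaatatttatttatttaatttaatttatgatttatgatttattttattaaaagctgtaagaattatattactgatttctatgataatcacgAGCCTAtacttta
mRpS23, chr2L:13835395-13835515, between CenG1A and mRpS23: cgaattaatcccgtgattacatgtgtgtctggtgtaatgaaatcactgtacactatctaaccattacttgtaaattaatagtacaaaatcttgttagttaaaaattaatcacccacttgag
mRpL32, chr3R:31252776-31252871, between qless and mRpL32: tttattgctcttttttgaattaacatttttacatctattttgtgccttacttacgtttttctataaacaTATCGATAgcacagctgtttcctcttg

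The hexamer lay 17.5 bp from the summit at mRpS2, 18.5 bp at mRpS10, 44.5 bp at mRpL24 and 50.5 bp at mRpL20. These runs were rich in A and T. Over 100 bp on each side of the summit the GC content was 26.9% at mRpS2, 30.3% at mRpS10, 27.4% at mRpL24, 26.4% at mRpL20, 36.3% at mRpS23 and 31.3% at mRpL32.

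Peaks that passed the authors' irreproducible discovery rate (IDR) threshold lay within 500 bp of a transcript start of 7 of the 73 genes (9.59%). This count uses the conservative list, made from the alignments of both replicates. The same rule called 2.87% of all protein-coding genes, 401 of 13968. The 7 genes were mRpL20, mRpL23, mRpL24 and mRpL41 of the large subunit and mRpS2, mRpS10 and mRpS23 of the small subunit. Thus 4 of 47 large-subunit and 3 of 26 small-subunit genes were at a peak. The optimal list, also from both replicates, gave 7 genes against a background of 3.89%. Replicate 1 alone gave 4 genes (5.48%) against 2.05%, and replicate 2 alone gave 7 against 3.09%. The study has no contrast between conditions and no test was run on these counts.

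The 7 genes lay on arms 2L, 2R, 3L and 3R. On 2L the starts of mRpS2 and mRpL24 lay at 4850419 and 4945361. That of mRpL28, which was at no peak in any list, lay closer to mRpL24, at 4973976. Chromosome arm 2L held 3 of its 12 members at a peak, beside 3.39% of all protein-coding genes on that arm. The counts were 2 of 17 on 3L (all genes 2.70%), 1 of 12 on 2R (2.70%) and 1 of 21 on 3R (3.13%). On X it was 0 of 11 members and 2.37% of all genes, a share that would give less than 1 member. No member had a start within 500 bp of a start of another member, so each peak belongs to a different locus.

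The signal, the peak height as the authors' files give it on a scale they do not state, ranged widely among the 7 peaks. It was 440 at mRpL41, 358 at mRpS23, 326 at mRpS10, 232 at mRpL23, 98.0 at mRpL24, 93.7 at mRpS2 and 74.2 at mRpL20. The first 4 stood above the median of 129 over the 611 conservative peaks on the arms and the other 3 stood below it. By signal the 7 peaks ranked 131, 149, 158, 196, 425, 445 and 543 of 611, in the same order. Their median was 232, and that of the 315 peaks at a start was 121. The scaled IDR score, which falls as the IDR rises and stops at 1000, was 1000 at 5 of the peaks, 917 at mRpS2 and 902 at mRpL20.

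The strong peaks were found in each replicate. mRpL41, a large-subunit protein with no bacterial counterpart, had a signal of 209 in replicate 1 and 227 in replicate 2, with ranks of 118 of 468 and 145 of 734. mRpS23, a small-subunit protein that also lacks a bacterial counterpart, had 151 and 205, with ranks of 144 and 153. mRpS10, the counterpart of bacterial S10, had 88.2 and 237, with ranks of 206 and 140. Among these 4 genes it had the lowest signal in replicate 1 and the highest in replicate 2. mRpL23, the counterpart of bacterial L23 at the exit tunnel, had 101 and 132, with ranks of 186 and 208. All 4 had a score of 1000 in all 4 lists. Signals are set side by side here and are comparable only within a list, whose medians were 75.6 in replicate 1 and 70.4 in replicate 2.

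The weaker peaks passed in some lists and not in others. mRpL24, the counterpart of bacterial L24, had a score of 1000 in replicate 2 (signal 54.0) and of 500 in replicate 1 (signal 44.9), below the lowest thresholded score of 830. mRpS2, the counterpart of bacterial S2, had 1000 in replicate 2 (67.0) and 288 in replicate 1 (31.4). mRpL20, the counterpart of bacterial L20, passed in the conservative list alone, with an IDR of 0.00672. Its IDR was 0.0930 in the optimal list, 0.929 in replicate 1 and 0.164 in replicate 2, although its signal of 74.2 was the same in the conservative and optimal lists. mRpL32, the counterpart of bacterial L32, was the eighth gene and passed in the optimal list (score 984, signal 73.1) and in replicate 2 (score 1000, signal 51.4). Its conservative IDR was 0.0409 (score 576), outside the list's highest IDR of 0.00999, and its replicate 1 score was 14. It was the nearest member outside that threshold, and mRpL20, with a score of 902, the nearest inside it. The 7 conservative peaks overlapped 4 thresholded peaks in replicate 1's list and 6 in that of replicate 2.

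**Figure D1:**
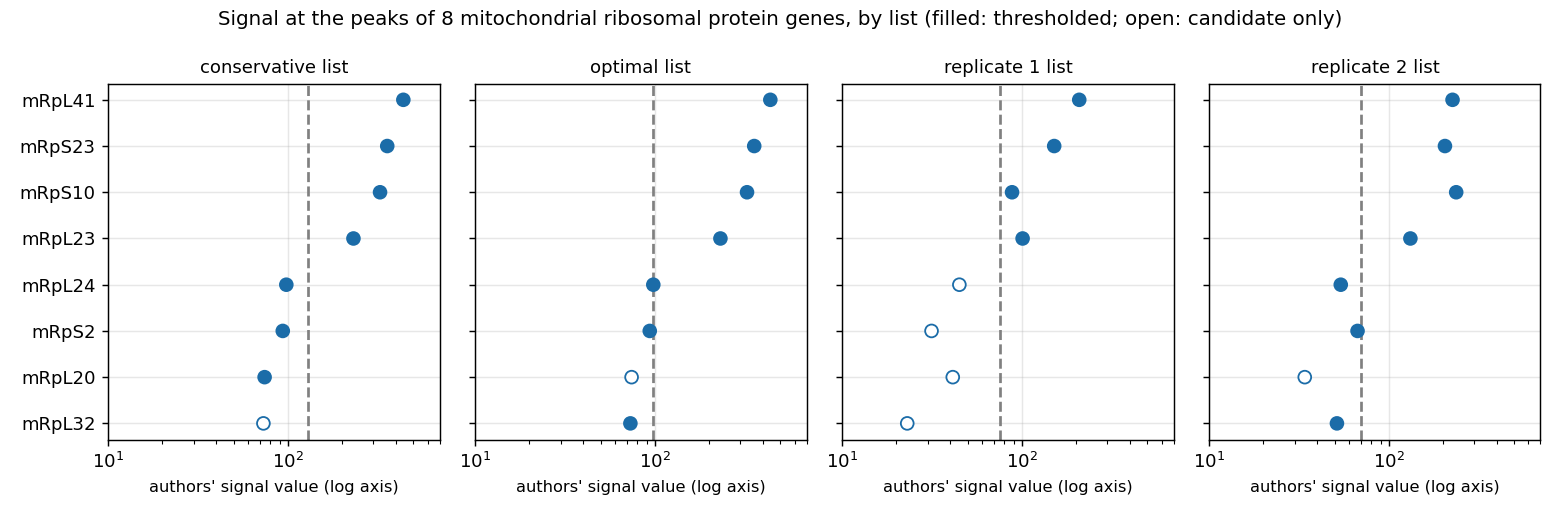
Signal of the authors' peak caller (log axis, scaling not stated) at the 8 genes in each of the 4 lists. Filled points are thresholded peaks, open points are candidates below the threshold, and the dashed line is the median of that list's thresholded peaks on the arms. mRpL41, mRpS23, mRpS10 and mRpL23 are filled and right of the line in all 4 panels.

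All 7 summits were shared, with a second gene starting no more than 500 bp away. At 6 of them that gene reads away from the member on the opposite strand, so that the summit lies at a divergent promoter. Of the 294 conservative peaks at a start of a protein-coding gene, 126 (42.9%) had a second gene by the same rule and 118 (40.1%) a divergent one. The starts were 492 bp apart for mRpS23 and CenG1A, an Arf GTPase-activating protein. They were 257 bp apart for mRpS10 and Art3, an arginine methyltransferase, and 218 bp for mRpL24 and betaggt-I, a beta subunit of a protein prenylation enzyme. They were 222 bp apart for mRpS2 and Mon1, which acts in Rab7 activation, and 399 bp for mRpL20 and Icmt, the isoprenylcysteine carboxylmethyltransferase. The partner of mRpL23 was CG9004, with 50 bp between the starts nearest the summit. At mRpL41 the other gene was the noncoding lncRNA:CR44463 on the same strand, 578 bp away, while its divergent neighbour CG8079 started 762 bp away. At mRpL32 the partner was qless, the polyprenyl diphosphate synthase for the side chain of coenzyme Q, 264 bp away.

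In the conservative list the summit was nearer to the member in 3 of the 7 cases and nearer to the partner in 4. At mRpL41 (chr2R:15217626-15217864) the summit lay 118 bp upstream of the member, an offset of -118 bp, and +460 bp from the start of lncRNA:CR44463. At mRpS10 (chr3R:15229455-15229635) it lay almost midway, at -127 bp from mRpS10 and -130 bp from Art3. In the lists of replicates 1 and 2 it was nearer to Art3, at -128 and -115 bp, against -129 and -142 bp from mRpS10. At mRpL23 (chr3L:2373556-2373657) the summit lay +60 bp downstream, in an exon of mRpL23, and -110 bp from CG9004. In replicate 1's list it lay in no exon, -84 bp from another start of mRpL23. The other 4 summits were nearer to the partner. At mRpS23 (chr2L:13835363-13835566) the offsets were -383 bp to the member and -109 bp to CenG1A, and at mRpL20 (chr3L:13017987-13018350) -302 bp and -97 bp to Icmt. At mRpL24 (chr2L:4945300-4945663) they were -121 bp and -97 bp to betaggt-I, and at mRpS2 (chr2L:4850386-4850749) -149 bp and -73 bp to Mon1. The lists do not say which of the 2 genes a peak acts on. The summits other than that of mRpL23 lay in no annotated gene.

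**Figure D2:**
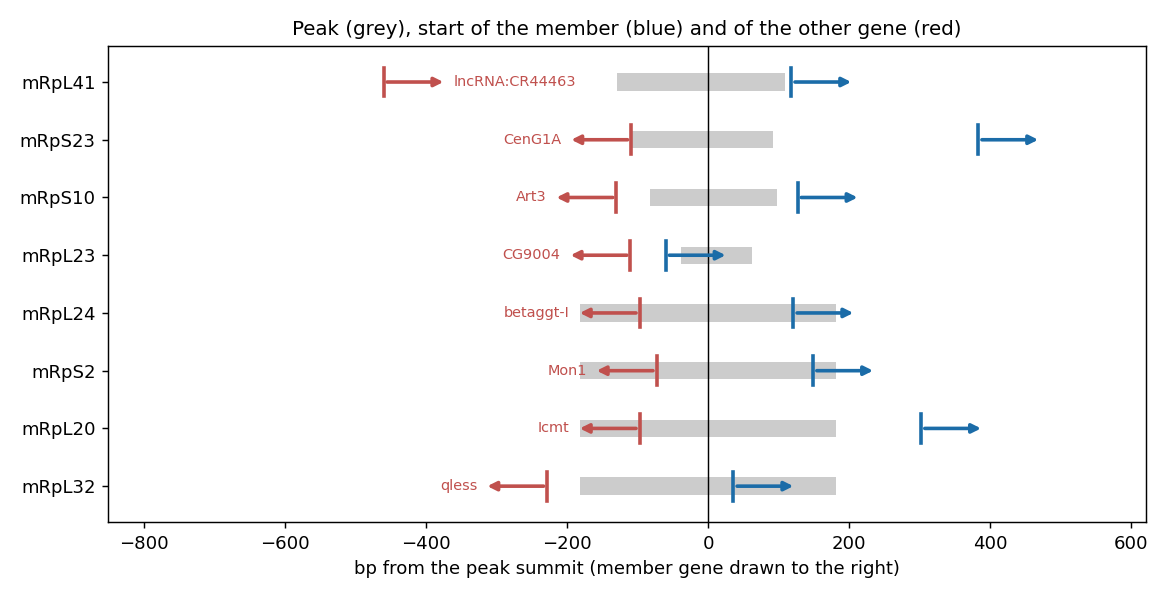
Position of each peak (grey bar) around its summit at 0, in bp, with the start and direction of the member (blue) and of the other gene (red), and each locus turned so that the member reads to the right. The peaks are conservative except at mRpL32, which is from the optimal list. At 7 of the 8 loci the red arrow points away from the blue one, and at mRpL41 it points the same way.

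For the 7 conservative peaks, candidates of the other lists were matched by overlap with the peak, which limits how far apart the summits can lie. The matched summits lay between -35 and 36 bp of the conservative summit, and those of the optimal list were the same as the conservative ones. At mRpL32, matched from its optimal peak, the replicate 1 summit lay at -81 bp. Of the 7 conservative summits, 6 lay upstream of the member's start with a median offset of -127 bp. Over all 417 pairs of a conservative peak and a protein-coding gene, 89.7% lay upstream, with a median of -147 bp.

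Divergent starts were common in this gene family. A start of another gene lay on the opposite strand within 1000 bp upstream for 58 of the 73 members (79.5%), and for 39.6% of all protein-coding genes. The gap to that start had a median of 283 bp over the 58 members and 298 bp over all 5527 such genes. Among genes with a divergent start, 7 of 58 members (12.1%) and 4.98% of all genes were at a conservative peak. Among genes without one, 0 of 15 members and 1.49% of all genes were. Of the members 67 (91.8%) had 1 annotated start, against 73.5% of all genes, and among these 5 members (7.46%) and 2.04% of all genes were at a peak.

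Most members had no thresholded peak in any list. This was so for 65 of the 73. At least 1 list had a peak at 8 members (11.0%) and at 4.20% of all genes, and all 4 lists had one at 4 members (5.48%) and at 1.68% of all genes. The ranked lists, which hold many weak candidates (126497 on the arms in the conservative list), had a summit within 500 bp of 35 members (47.9%) and of 61.0% of all genes. In the optimal, replicate 1 and replicate 2 ranked lists the members with a candidate numbered 42 (57.5%), 34 (46.6%) and 41 (56.2%). The backgrounds were 66.8%, 50.8% and 65.8%. In all 4 lists the share of members with a candidate was therefore below that of all genes, whereas the share at a thresholded peak was above it. Among genes with 1 start, 31 of 67 members (46.3%) and 58.9% of all had a conservative candidate. Of the members with a candidate, 7 of 35 (20.0%) were at a thresholded peak, and of all genes with a candidate 4.71%.

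The candidates at the remaining members were weak. In the conservative list 27 of the 65 had one, with a median score of 39 and a median signal of 15.9, beside a median signal of 16.9 over all candidates. None of them had a signal above the median of thresholded peaks. The 6 with the highest scores were mRpS18B (score 311, signal 38.2), mRpS18A (289, 37.5), mRpL45 (181, 39.4), mRpS29 (168, 24.7), mRpS35 (137, 7.24) and mRpL13 (122, 31.0). All 6 had scores far from the threshold of 830, and mRpL32 at 576 was the only member between them and the thresholded genes. mRpS29, also known as DAP3, is the GTP-binding protein of the small subunit. No candidate lay within 500 bp of 15 members (20.5%) in any of the 4 ranked lists, near the 18.4% of all genes. The large-subunit genes among these 15 were mRpL1, mRpL4, mRpL10, mRpL17, mRpL22, mRpL28, mRpL44, mRpL47, mRpL52, mRpL53 and mRpL54. The small-subunit genes among them were mRpS11, mRpS31, mRpS33 and mRpS34. mRpL1 and mRpL4 are counterparts of bacterial proteins, so members with a bacterial counterpart were found both at thresholded peaks and without any candidate.

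**Figure D3:**
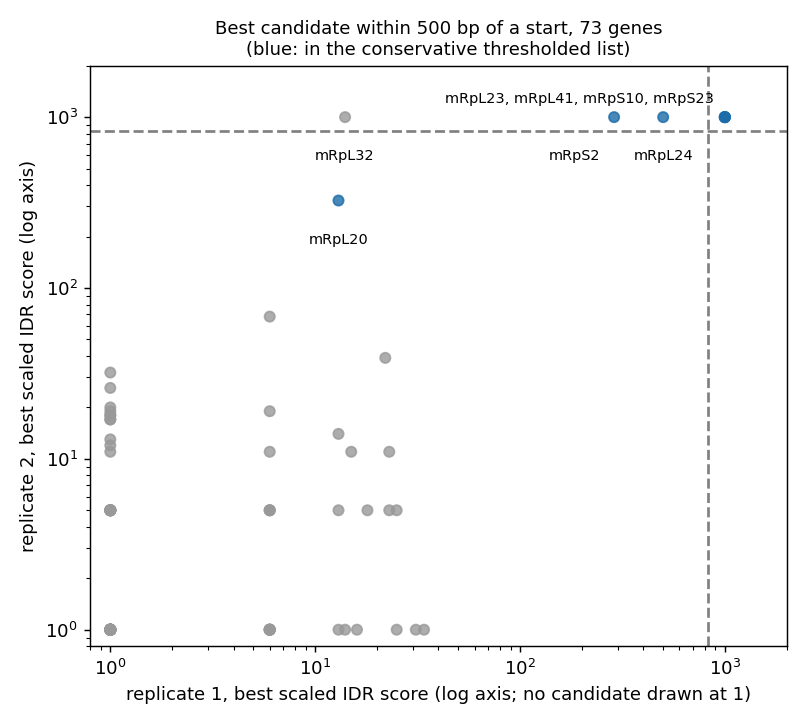
Highest scaled IDR score within 500 bp of a start in replicate 1 (x, log axis) and replicate 2 (y, log axis) for each of the 73 genes, with genes that lack a candidate drawn at 1. Blue points are the 7 genes at a conservative peak, and the dashed lines mark the lowest thresholded scores of 830 and 831. mRpL23, mRpL41, mRpS10 and mRpS23 lie together at 1000 in both, and mRpS2, mRpL24 and mRpL32 pass in replicate 2 only.

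Other lists of mitochondrial and ribosomal genes were counted by the same rule. Of tko and bonsai, mitochondrial ribosomal proteins that carry other names, 0 of 2 were at a conservative peak. The counts were 0 of 9 mitochondrial translation factors, 0 of 15 mitochondrial aminoacyl-tRNA synthetases, 0 of 12 genes of mitochondrial DNA maintenance and expression and 0 of 15 genes of protein import. These lists are short, and a background of 2.87% would give less than 1 gene in each. Of 86 respiratory chain genes 1 was at a peak (1.16%), ND-MWFE, a subunit of complex I, with a signal of 92.7 beside the start of TppII, a tripeptidyl peptidase. Cytoplasmic ribosomal protein genes had 4 of 88 at a peak (4.55%), with signals of 138 at RpL32, 116 at RpS4, 102 at RpS20 and 76.6 at RpL34b. The first 3 of these signals lay between the 4 higher signals of the mitochondrial family (232 to 440) and its 3 lower ones (74.2 to 98.0), and that of RpL34b lay among the lower ones. RpL32 and RpS4 were also found in the thresholded lists of both replicates, RpL34b and ND-MWFE in that of replicate 1 only, and RpS20 in neither. In the optimal list 6 of 88 cytoplasmic ribosomal protein genes and 7 of 73 members were at a peak, against a background of 3.89%. The conservative summits at RpL32, RpS20 and RpL34b also lay at a start of another gene (CG7943, CG17271 and CG8132), and that at RpS4 did not. A divergent start was present at 79.5% of the members, at 75% of the genes of mitochondrial DNA maintenance and expression, at 62.5% of the cytoplasmic ribosomal protein genes and at 54.7% of the respiratory chain genes. The other 4 lists ranged from 33.3% to 50%.

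**Figure D4:**
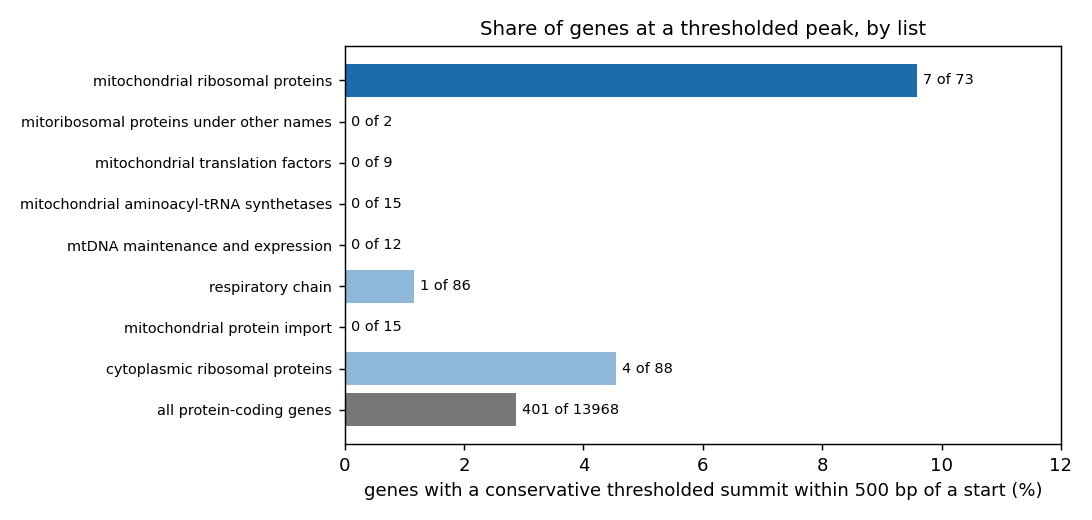
Share of genes (%) with a conservative thresholded summit within 500 bp of a start, for the 73 members, 7 related gene lists and all protein-coding genes, with the counts beside each bar. The members stand at 9.59%, cytoplasmic ribosomal protein genes at 4.55% and all protein-coding genes at 2.87%.

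Known promoter and insulator motifs were searched on both strands within 100 bp of the summits. The core of the CTCF insulator site (AGNNGGC, where the first N is A or G and the other is G or T) was in 0 of the 7 windows, in 32.6% of the 611 conservative peaks and in 19.4% of the 294 peaks at promoters of protein-coding genes. TATCGATA was in 0 of 7 and in 4.76% of those promoter peaks, and the shorter CGATA, which every TATCGATA contains, was in 3 of 7 (mRpL20, mRpL41 and mRpS10) and in 34.4%. TATAAA was in 3 of 7 (mRpL23, mRpL24 and mRpS2) and in 41.5%. GAGAG was in 1 of 7 (mRpL23) and in 15.6%, and CACGTG, the E-box, in 1 of 7 (mRpL23) and in 2.72%. Ohler motif 6 was in 1 of 7, at mRpL41 and 6.5 bp from the summit, and in 1.02%. Ohler motifs 1 and 7 and the palindromic site of mammalian nuclear respiratory factor 1 were in none of the 7 windows.

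TAGGCT, the hexamer in capitals above, was in 4 of the 7 windows. It was in 30 of 611 conservative peaks (4.91%), in 14 of 294 promoter peaks (4.76%) and in 398 of 12809 promoter candidates below the threshold (3.11%). The hexamer was picked from the 7 windows after their sequences had been seen, so its count there is not an independent result. The 611 and the 294 peaks include these 7 windows, so the 4 that hold it are also among the 30 and the 14. Of 2080 hexamers, counted with their reverse complements, 37 were in at least 4 of the 7 windows and 1 of these, TAGGCT, had 3 or more G or C. The rest were rich in A and T, as the windows were. The median GC content was 27.4% over the 7 windows, 34.8% over promoter peaks and 47.8% over promoter candidates below the threshold. The windows at mRpS23 (36.3%) and mRpL23 (35.8%) were above the median of promoter peaks.

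The promoters of the family, from 250 bp before to 50 bp after the start, were set beside the promoters of all 13968 protein-coding genes, with no test. TATCGATA was in 15 of 73 (20.5%) and in 9.36% of all. CGATA was in 58.9% and 47.4%, Ohler motif 1 in 8.22% and 4.49%, and Ohler motif 6 in 4.11% and 2.23%. GAGAG was in 16.4% and 29.8%, the CTCF core in 5.48% and 9.39%, and TAGGCT in 9 of 73 (12.3%) and 6.34%. The hexamer was picked from windows at members, and 5 of these 9 promoters belong to the 7 genes at a conservative peak. Of the other 66 members, 4 had it (6.06%). TATAAA was in 46.6% and 45.9%, CACGTG in 6.85% and 4.23%, and Ohler motif 7 in 2.74% and 2.44%. The nuclear respiratory factor 1 site was in 0 of 73 and in 0.723%. Of the 15 members with TATCGATA, 2 were at a conservative peak (mRpL20 and mRpS23), and of the 58 without it 5 were. Over all protein-coding genes with TATCGATA, 43 of 1308 (3.29%) were at a conservative peak. A divergent start was present at 838 of these 1308 genes, beside 39.6% of all protein-coding genes and 79.5% of members. Whether the higher share of TATCGATA in the family goes with this arrangement was not tested.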

How the data were processed

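ChIP-seq peak lists of 2 biological replicates of 1 group were used. Per the labels and the text deposited with the samples, the authors called peaks on dm6. They deposited a list for each replicate and the conservative and optimal lists from both, each thresholded and as ranked candidates. The sources used here name neither the caller nor the aligner. The scaled IDR score, the signal and the −log10 IDR values are as deposited by the authors. The signal was compared within a list only, because its scaling is not stated. The lists hold no read counts, so depth is unknown and no counting interval is given.

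Summits on the 7 arms were assigned to every gene with a transcript start within 500 bp, using Ensembl release 115 and the RefSeq dm6 sequence, whose arm lengths held all peaks and genes. The assignment was tested on simulated summits. Scripts used Python 3.11.15, numpy 2.4.6 and pandas 2.3.3. Members and lists were chosen with earlier results of these data known. The text names each member at a thresholded summit in any list with its partners. Also named are the 6 highest members below the threshold, the members with no candidate in any ranked list, and related genes at a peak. Other lists, motif windows, distances and assignments were tried as alternatives. Peaks on unplaced or mitochondrial sequence and the signal tracks were not used here.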

Additional observations from a re-analysis of the deposited data

How the results depend on the processing

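The main count was 7 members at a conservative peak, all 7 peaks also at another start, with a median offset of -127 bp, a median signal of 232 and 35 members with a candidate. With 1 replicate's own list in place of the conservative list, the members at a peak were 4 to 7, the peaks also at another start 4 to 7, the median offset -142 to -133.5 bp and the median signal 126 to 132, which is on another scale. With replicate 1's list alone mRpL20, mRpL24 and mRpS2 were lost. With the peaks of above-median signal only, 4 members and 4 shared peaks were left, with a median signal of 342. When a peak counted for the nearest start alone, 3 members (mRpL23, mRpL41 and mRpS10) and, by construction, 0 shared peaks were left, with a median offset of -118 bp and a median signal of 326. With a score of 1000 only the median signal was 326, over 5 members. Within 250 bp there were 5 members, 4 shared peaks and 20 members with a candidate. With members that have a candidate as the denominator, the share was 20.0% in place of 9.59%. The optimal list, 1000 bp, the peak interval in place of the summit, and the first start of each gene each gave 7 members. In the optimal list, as in that of replicate 2, mRpL32 stood in place of mRpL20, and the other settings of this group kept the main 7. Genes with 1 start only, chosen after the data were seen, gave 5. Some motif counts over the 7 peaks moved with the window. From 50 to 100 to 250 bp, CGATA went from 0 to 3 to 5, TATAAA from 1 to 3 to 5, CACGTG from 0 to 1 to 3, TATCGATA from 0 to 0 to 1 and TAGGCT from 3 to 4 to 4. The other 6 motifs kept their counts. No paired analysis was possible because there is 1 group and no result comes from a test. The lists hold no read counts, so no error from counting reads could be given. The shares rest on few genes, and no interval was computed for them. The peaks that failed in replicate 1 still had candidates there, with signals of 44.9 at mRpL24, 41.2 at mRpL20 and 31.4 at mRpS2, beside a median of 11.0 over all candidates.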
